A study of Mesocricetus auratus with 24 samples.

Results

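The genes of the calcium pumps and of the intracellular calcium release channels were followed in the inferior colliculus (IC), the midbrain auditory nucleus in which audiogenic seizures start, of seizure-prone GASH/Sal hamsters and of control Syrian hamsters. Of 10 listed genes (Atp2a2, Atp2a3, Atp2b1, Atp2b2, Atp2b3, Atp2b4, Itpr1, Itpr2, Ryr2 and Ryr3), 8 had a probe set that carried their symbol alone, out of 19938 genes with such a probe set, and each of the 8 had 1 probe set. Atp2b4 and Itpr1 had no probe set with that single symbol, and no value is given for them. The set was chosen by the measured signal of Atp2a3 in naïve animals, which was lower in GASH/Sal, so the strain difference of naïve animals is described here without a test.

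The GASH/Sal is the genetic audiogenic seizure hamster of the University of Salamanca, a line bred for seizures evoked by loud sound, and the control strain was the Syrian hamster, all at 16 weeks of age. The 24 arrays formed 4 groups of 6 animals each: stimulated GASH/Sal, naïve GASH/Sal, stimulated Syrian and naïve Syrian. Stimulated animals of both strains were exposed to sound and the IC was taken 60 min later, while naïve animals were not exposed, and the labels name no drug or engineered allele in any group. Seizure susceptibility and other inherited differences between the 2 strains cannot be told apart, nor can the sound and the seizure in stimulated GASH/Sal.

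Calcium ions carry signals inside neurons, and their resting concentration in the cytosol is kept very low by pumps that burn ATP. The SERCA pumps (Atp2a genes) move Ca2+ into the endoplasmic reticulum, and the PMCA pumps (Atp2b genes) move it out across the plasma membrane. The stored Ca2+ is released again through inositol trisphosphate receptors (Itpr genes), opened by IP3 downstream of metabotropic receptors, and through ryanodine receptors (Ryr genes), opened by Ca2+ itself. In auditory neurons, which fire at high rates, clearance by these pumps shapes how long each Ca2+ transient lasts.

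Signals are log2 values after RMA. The probes were designed on mouse sequence, so differences are taken between arrays for 1 gene at a time. The percentile of a gene's mean signal among all genes gives only its rough place on the array. Array medians spanned 4.50 to 4.65, any 2 arrays correlated at 0.965 to 0.993 over genes, and the standard error of a 2-group difference was 0.0895 at the median gene. A pair of arrays correlated least with the rest, naïve GASH/Sal 6 and stimulated Syrian 4. Values of the members without them are given where they matter, while correlations of members with other genes include them. The labels name the animals in 2 styles, here label series B (replicates 4 to 6 of every group) and label series A (replicates 1 to 3), and no source used here says what the styles mean. General neuronal markers had 10 of 10 members measured, at percentiles 88.7 to 99.7 of the mean signals of all genes, with the glutamate transporter Slc17a6 at 97.7. Inhibitory neuron markers, 4 of 5 of them measured, lay at percentiles 42.2 (Slc6a5) to 98.7 (the GABA-synthesising enzyme Gad1), with 1 below the median signal. Markers of neighbouring tissue were mixed. Those of cerebellar granule cells lay at percentiles 14.5 to 90.7, with 3 of 8 below the median signal (Gabra6 at 20.3, but Etv1 at 90.7 and Cbln1 at 81.1), and those of choroid plexus at 19.3 (Ttr) to 53.9, with 6 of 7 below it. Because bulk tissue was measured, fewer cells of a type and less RNA per cell cannot be told apart.

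The SERCA genes were the members that differed most between the strains after sound. Atp2a3 was 0.31 lower and Atp2a2 0.22 higher (log2) in stimulated GASH/Sal than in stimulated Syrian hamsters, both small differences that did not pass the test over all genes. The plasma membrane pumps were 0.10 to 0.20 higher in stimulated GASH/Sal, and the release channels differed by 0.11 or less. None of the 19938 genes passed in this comparison (0% called at an adjusted p under 0.05, limma), so the members are read from their values and intervals. At an unadjusted p under 0.05, 2 of 8 members were Atp2a2 and Atp2a3, against 5.42% of all genes.

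**Figure D1:**
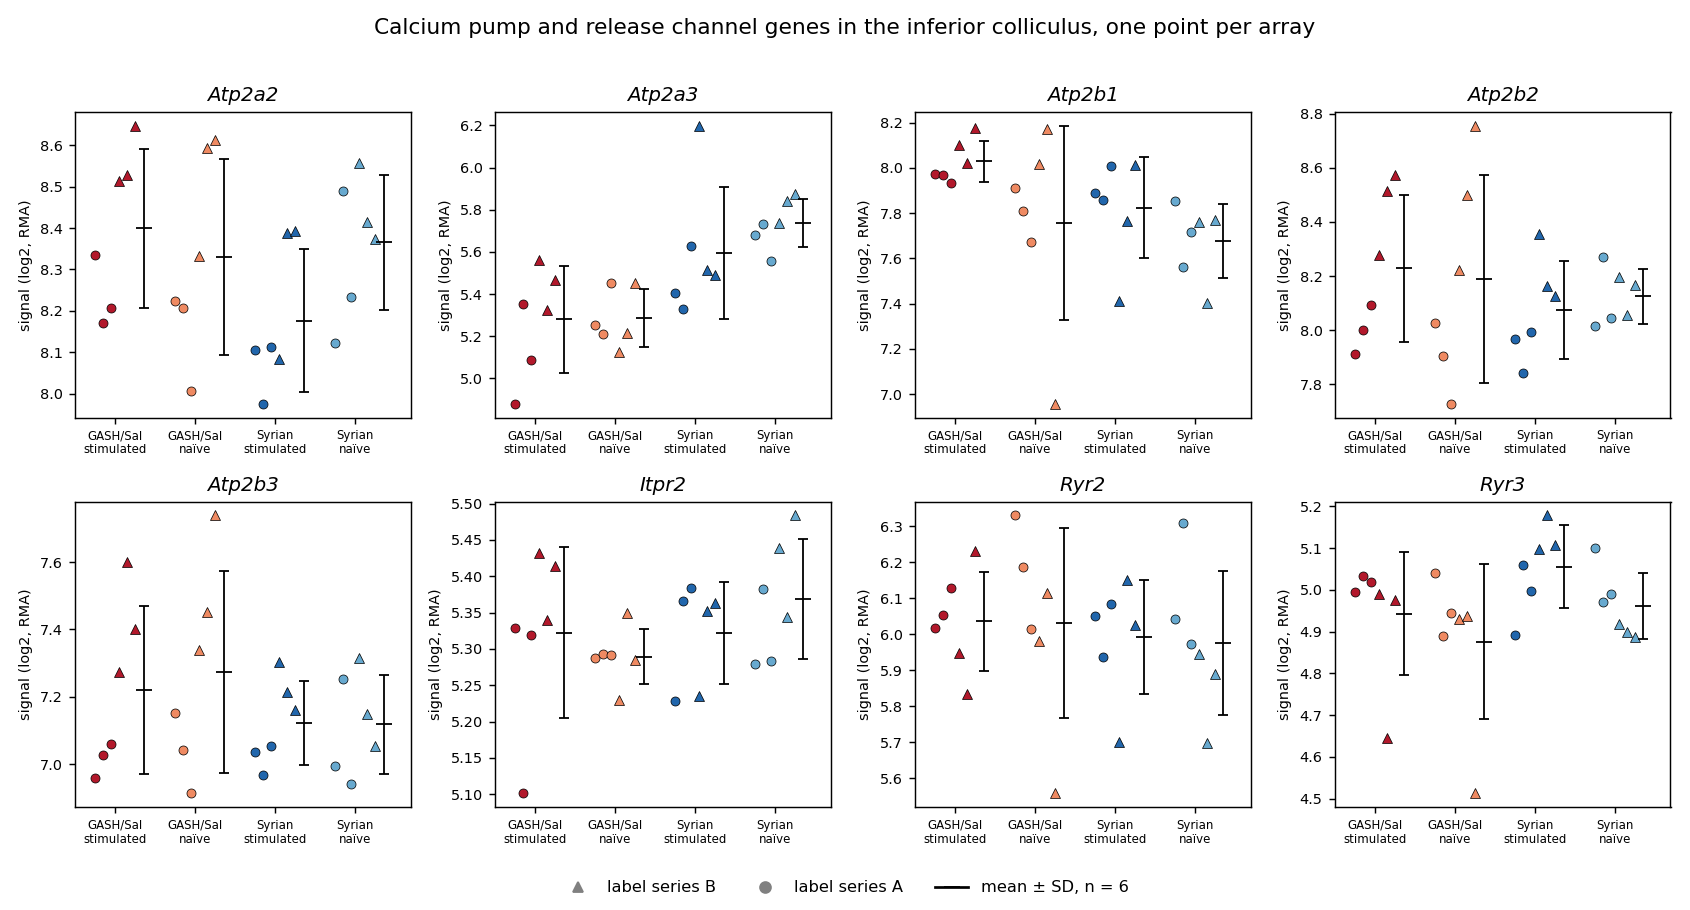
Signal (log2, RMA) of the 8 measured pump and channel genes in stimulated GASH/Sal, naïve GASH/Sal, stimulated Syrian and naïve Syrian hamsters, 1 point per array, with triangles for label series B, circles for label series A and the mean ± SD (n = 6) beside each group. Naïve GASH/Sal values of Atp2a3 lie between 5.13 and 5.45, all below the naïve Syrian values of 5.56 to 5.87, and the GASH/Sal triangles of Atp2b2 lie above all GASH/Sal circles.

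Atp2a3 encodes SERCA3, a pump of the endoplasmic reticulum with a lower affinity for Ca2+ than SERCA2, known in mouse from blood cells, platelets, endothelium and cerebellar Purkinje neurons (probe set 10378216, percentile 66.2 of signal). In stimulated GASH/Sal hamsters its signal was 4.88, 5.35, 5.09, 5.56, 5.33 and 5.47, against 5.41, 5.33, 5.63, 6.20, 5.52 and 5.49 in stimulated Syrian hamsters. The ranges overlapped, but 6 of 6 stimulated GASH/Sal arrays lay below the stimulated Syrian mean. The means were 5.28 ± 0.253 and 5.59 ± 0.312 (SD, n = 6 each), a log2 difference of -0.31 (SE 0.106, 95% interval -0.53 to -0.097), or 1.24-fold lower in stimulated GASH/Sal (limma adjusted p = 0.887). The difference was -0.35 (SE 0.117) in label series A and -0.28 (SE 0.162) in label series B. Stimulated Syrian 4, the highest of all 24 arrays for this gene, carried part of it, since the difference was -0.21 without that array.

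In naïve animals the same pump gene separated the strains, which is the observation that chose it. Naïve GASH/Sal arrays gave 5.26, 5.21, 5.45, 5.13, 5.21 and 5.45, against 5.68, 5.73, 5.56, 5.74, 5.84 and 5.87 in naïve Syrian arrays. Every naïve GASH/Sal array lay below every naïve Syrian array, as for 0.186% of all genes in that direction. The means were 5.29 ± 0.137 and 5.74 ± 0.114 (SD, n = 6 each), a log2 difference of -0.45 (SE 0.106) or 1.37-fold, with -0.35 in label series A and -0.55 in label series B. The 4 group means thus ran in the order stimulated GASH/Sal (5.28), naïve GASH/Sal (5.29), stimulated Syrian (5.59) and naïve Syrian (5.74). The GASH/Sal means differed by less than the SD of either group, and the Syrian means by less than the SD of the stimulated arrays but more than that of the naïve ones.

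Beside this, the blood and platelet markers, 6 of 9 of them measured, were all lower in GASH/Sal in both strain comparisons, by a median of -0.058 in stimulated and -0.046 in naïve animals, where 44% and 45.8% of all genes lay above 0. Their mean signal per array lay between 4.26 and 4.40 in stimulated GASH/Sal and 4.19 and 4.36 in naïve GASH/Sal, against 4.26 to 4.55 in stimulated Syrian and 4.27 to 4.42 in naïve Syrian hamsters. Endothelial markers lay below 0 in 7 of 8 members after sound (median -0.076) and in 3 of 8 in naïve animals, and Purkinje markers lay above 0 in 5 of 8 in both. Smooth muscle markers lay below 0 in 3 of 6 members after sound (median -0.016) and in 5 of 6 in naïve animals (median -0.076). After sound, astrocyte markers also lay below 0 in 8 of 9 (median -0.079) and microglia markers in 7 of 9 (median -0.040). In naïve animals each did so in 3 of 9. Neuronal markers lay above 0 in 8 of 10 (median 0.12) and oligodendrocyte markers in 8 of 9 (median 0.13) after sound. In naïve animals they did so in 5 of 10 (median 0.012) and 6 of 9 (median 0.10). Over the 24 arrays Atp2a3 correlated with the mean of the smooth muscle markers at r = 0.545, of the endothelial markers at 0.489 and of the blood and platelet markers at 0.324, as a description. For cerebellar granule cell and microglia markers r was 0.36 and 0.334. It was negative for Purkinje (-0.207), neuronal (-0.383) and oligodendrocyte (-0.344) markers, and 0.058 to 0.182 for the remaining lists. All of these correlations include stimulated Syrian 4, the highest array for Atp2a3, and naïve GASH/Sal 6, and none is given without them. The blood and platelet genes lay at percentiles 6.48 (Ppbp, a platelet chemokine) to 64.0 (Itga2b, a platelet integrin) of signal, with the erythroid Alas2 at 56.3 and the leukocyte gene Ptprc at 23.8. No marker of the blood and platelet, endothelial, Purkinje and smooth muscle lists passed in a strain comparison by limma. Of these lists, 1 endothelial marker, higher in GASH/Sal, stood at an unadjusted p under 0.05 after sound and none in naïve animals. Of the oligodendrocyte markers 2 of 9 stood there in each comparison, and of the neuronal markers 1 of 10, all higher in GASH/Sal. Of the microglia markers 1 of 9 did after sound, lower in GASH/Sal. The shares of all genes were 5.42% after sound and 6.02% in naïve animals. The part of any cell type in the Atp2a3 values was not tested.

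Atp2a2 encodes SERCA2, the pump that fills the endoplasmic reticulum in nearly every cell type and the main SERCA of neurons (probe set 10533483, percentile 98.6). Its signal was 8.33, 8.17, 8.21, 8.51, 8.53 and 8.65 in stimulated GASH/Sal hamsters, against 8.10, 7.98, 8.11, 8.08, 8.39 and 8.39 in stimulated Syrian hamsters. The ranges overlapped, with 5 of 6 stimulated GASH/Sal arrays above the stimulated Syrian mean. The log2 difference was 0.22 (SE 0.0793, 95% interval 0.061 to 0.39, limma adjusted p = 0.887), with 0.17 in label series A and 0.27 in label series B. In naïve animals the values were 8.22, 8.21, 8.01, 8.33, 8.59 and 8.61 in GASH/Sal, against 8.12, 8.49, 8.23, 8.56, 8.42 and 8.37 in Syrian hamsters, and the difference of -0.04 was smaller than its standard error. The lowest of the 4 group means was that of stimulated Syrian hamsters (8.18 ± 0.173, SD, n = 6), the other three lying between 8.33 and 8.40.

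**Figure D2:**
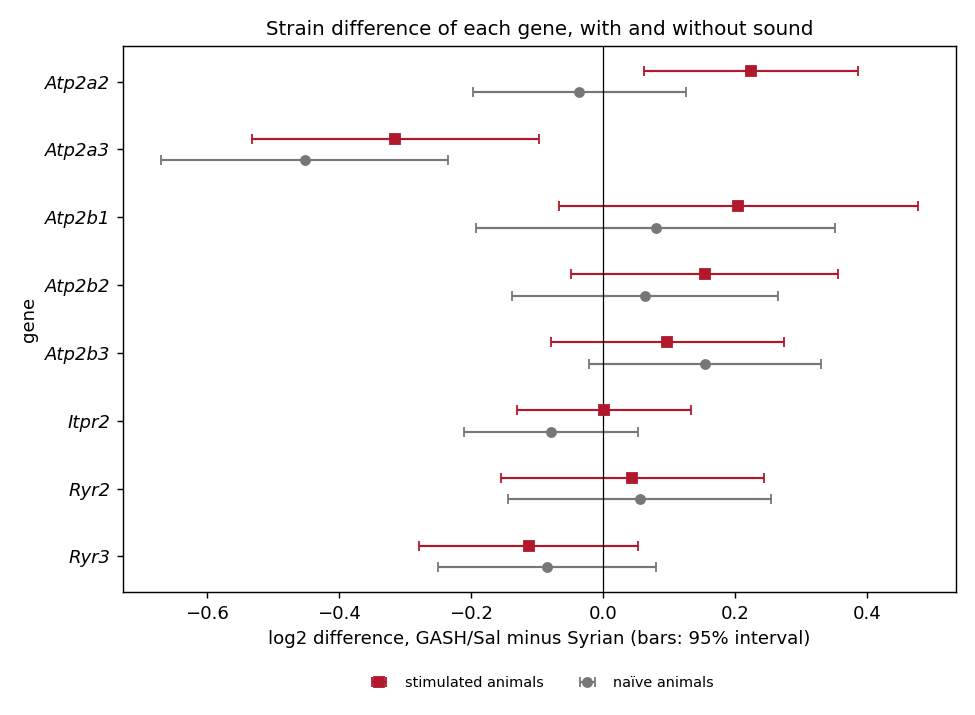
Log2 difference, GASH/Sal minus Syrian, of each measured gene (rows) in stimulated animals (squares, tested) and in naïve animals (circles, described only because they chose the set), with 95% intervals. In stimulated animals the intervals of Atp2a2 (0.061 to 0.39) and Atp2a3 (-0.53 to -0.097) leave out 0, and the other 6 include it.

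The plasma membrane pumps were examined next. Atp2b1 encodes PMCA1, the pump found in nearly all cells (probe set 10366004, percentile 97.3). It gave 7.97, 7.97, 7.93, 8.10, 8.02 and 8.17 in stimulated GASH/Sal hamsters, against 7.89, 7.86, 8.01, 7.41, 7.76 and 8.01 in stimulated Syrian hamsters. All 6 stimulated GASH/Sal arrays lay above the stimulated Syrian mean, and they were the least scattered group (SD 0.0924). The difference of 0.20 (SE 0.133) had a 95% interval of -0.067 to 0.48 (limma adjusted p = 0.901), and was 0.12 without stimulated Syrian 4. Within the label series it was 0.04 in A and 0.37 in B.

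Atp2b2 encodes PMCA2, a fast pump of hair cells and neurons whose loss causes deafness and ataxia in mice (probe set 10546977, percentile 98.2). Stimulated GASH/Sal arrays read 7.91, 8.00, 8.09, 8.28, 8.51 and 8.57, against 7.97, 7.84, 7.99, 8.36, 8.16 and 8.13 in stimulated Syrian hamsters. The groups overlapped, with a difference of 0.15 (SE 0.0989, 95% interval -0.048 to 0.36, limma adjusted p = 0.901). In naïve animals the values were 8.02, 7.90, 7.73, 8.22, 8.50 and 8.75 in GASH/Sal, against 8.01, 8.27, 8.05, 8.20, 8.06 and 8.17 in Syrian hamsters, and the mean difference was 0.06. It was -0.22 in label series A and 0.35 in label series B, of opposite sign.

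Atp2b3 encodes PMCA3, a pump found mainly in brain (probe set 10600180, percentile 94.8). Its values were 6.96, 7.03, 7.06, 7.27, 7.60 and 7.40 in stimulated GASH/Sal hamsters, against 7.04, 6.97, 7.05, 7.30, 7.21 and 7.16 in stimulated Syrian hamsters. The difference was 0.10 (SE 0.0862, 95% interval -0.079 to 0.27, limma adjusted p = 0.917), and 0.049 without stimulated GASH/Sal 5. Naïve GASH/Sal arrays gave 7.15, 7.04, 6.91, 7.34, 7.45 and 7.74, against 6.995, 7.25, 6.94, 7.32, 7.15 and 7.05 in naïve Syrian arrays, a difference of 0.15 that was -0.03 in label series A and 0.34 in label series B. In both PMCA genes the high GASH/Sal arrays were those of label series B.

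The release channels varied little between the strains. Itpr2 encodes the type 2 IP3 receptor, known in mouse brain mainly from astrocytes (probe set 10549282, percentile 62.1), and over the 24 arrays it lay between 5.10 and 5.48. Its residual spread was among the smallest of all genes (percentile 0.371), and its strain difference after sound was 0.00085 (SE 0.0644, 95% interval -0.13 to 0.13). The array that departed most was stimulated GASH/Sal 2, at 5.10, with the other 5 of its group between 5.32 and 5.43. In naïve animals 6 of 6 GASH/Sal arrays lay below the Syrian mean, at a difference of -0.08 (SE 0.0644).

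Ryr2, which encodes the ryanodine receptor of heart and the main one of brain (probe set 10407598, percentile 79.9), ranged over the arrays from a lowest value of 5.56 in naïve GASH/Sal 6 to a highest of 6.33 in naïve GASH/Sal 1. The strain difference was 0.04 (SE 0.0976, 95% interval -0.16 to 0.24) in stimulated animals and 0.06 in naïve animals. Ryr3, a ryanodine receptor of brain and smooth muscle (probe set 10485840, percentile 51.6), gave 4.99, 5.03, 5.02, 4.99, 4.65 and 4.98 in stimulated GASH/Sal hamsters, against 4.89, 5.06, 4.997, 5.10, 5.18 and 5.11 in stimulated Syrian hamsters. Its 6 stimulated GASH/Sal arrays all lay below the stimulated Syrian mean, but the difference of -0.11 (SE 0.0811, limma adjusted p = 0.903) included 0 in its 95% interval (-0.28 to 0.053). It was -0.057 without stimulated GASH/Sal 5, the lowest array of its group, and 0.03 in label series A and -0.26 in label series B. For these 3 channel genes the intervals leave room for differences of up to 0.28 in size.

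The difference between stimulated and naïve animals addressed whether these genes respond within 60 min of sound. No gene was called in either strain by limma (0% of 19938), while at an unadjusted p under 0.05 there were 4.46% of all genes in GASH/Sal and 6.64% in Syrian hamsters. Among the 7 members tested here, 1 stood at that level in each strain, Atp2b1 in GASH/Sal and Atp2a2 in Syrian hamsters. Atp2a3 is described only, since its naïve values chose it.

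**Figure D3:**
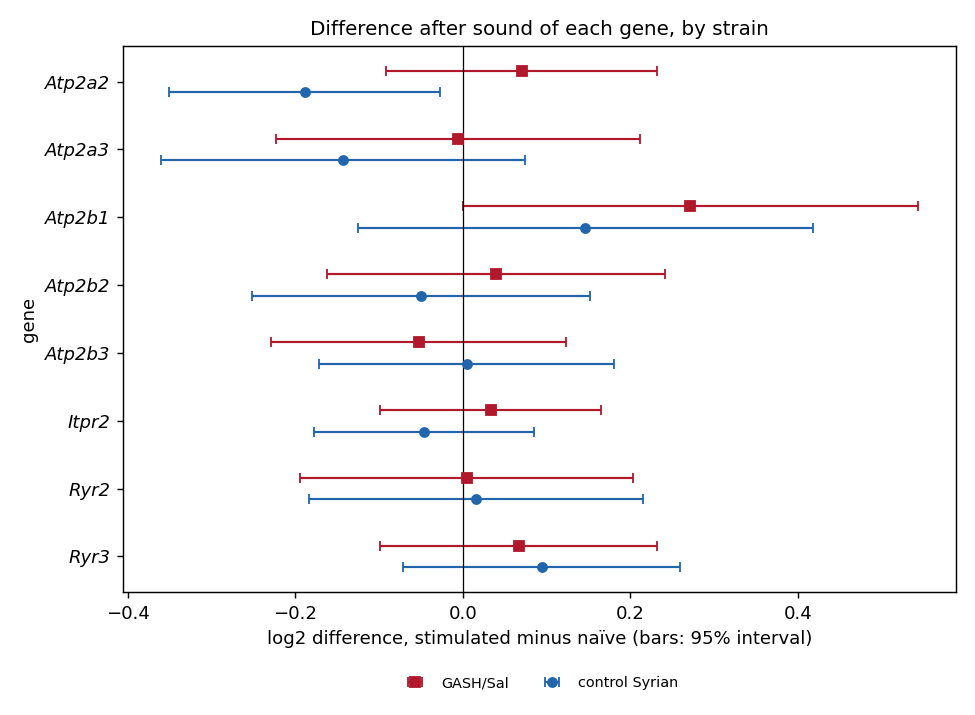
Log2 difference, stimulated minus naïve, of each measured gene (rows) in GASH/Sal (squares) and in control Syrian hamsters (circles), with 95% intervals. The intervals of Atp2b1 in GASH/Sal (3.0e-05 to 0.54) and of Atp2a2 in Syrian hamsters (-0.35 to -0.027) leave out 0, and Atp2a3 is a description.

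Atp2b1 was higher in stimulated GASH/Sal hamsters, at the values given above, than in naïve GASH/Sal hamsters, at 7.91, 7.81, 7.67, 8.02, 8.17 and 6.96. The last of these naïve arrays lay far below every other array for this gene. The difference was 0.27 (SE 0.133, limma adjusted p = 0.999) and 0.11 without naïve GASH/Sal 6. In Syrian hamsters Atp2b1 was 0.15 higher after sound (SE 0.133), with naïve values of 7.85, 7.56, 7.72, 7.76, 7.40 and 7.77. Averaged over both strains the difference was 0.21 (SE 0.0940, limma adjusted p = 0.638) and 0.13 without naïve GASH/Sal 6. Only Fos, an immediate-early gene, was called in that average over all genes (0.00502%, limma adjusted p = 0.00222).

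Atp2a2 was 0.19 lower in stimulated than in naïve Syrian hamsters (SE 0.0793, 95% interval -0.35 to -0.027, limma adjusted p = 0.726), with 4 of 6 stimulated arrays below the naïve mean. In GASH/Sal hamsters it was 0.07 higher (SE 0.0793). The difference between the responses, GASH/Sal minus Syrian, was 0.26 (SE 0.112, 95% interval 0.030 to 0.49), with 0.31 in label series A and 0.21 in label series B, and did not pass over all genes (limma adjusted p = 0.99996). At an unadjusted p under 0.05 it was the only one of 7 tested members, against 3.68% of all genes.

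The other members moved little with sound. In GASH/Sal hamsters Atp2b2, Atp2b3, Itpr2, Ryr2 and Ryr3 differed by -0.05 to 0.07, and in Syrian hamsters by -0.05 to 0.09. Atp2a3 differed by -0.0056 (SE 0.106) in GASH/Sal hamsters, where it was -0.20 in label series A and 0.19 in label series B. In Syrian hamsters it differed by -0.14 (SE 0.106), and by -0.25 without stimulated Syrian 4.

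The label series separated 3 of the pumps in GASH/Sal hamsters more than strain or sound did, a contrast chosen after seeing the data. Between series B and series A of GASH/Sal, 3 of 8 members were called, all higher in series B, against 4.23% of all genes called and 3.74% called higher (limma, adjusted p under 0.05). They were Atp2b2, Atp2b3 and Atp2a2. In Syrian hamsters 0 of 8 members were called, against 0.747% of all genes, and at an unadjusted p under 0.05 there was 1 of 8, Atp2a2, against 13.2%.

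Atp2b2 lay between 8.22 and 8.75 in the 6 GASH/Sal arrays of series B, against 7.73 to 8.09 in the 6 of series A, without overlap, as for 2.8% of all genes in that direction. The means were 8.47 and 7.94, a log2 difference of 0.53 (SE 0.0876, 95% interval 0.35 to 0.71) or 1.44-fold (limma adjusted p = 0.000385). Atp2b3 had means of 7.47 and 7.03, a difference of 0.44 (SE 0.0792, limma adjusted p = 0.000917), also without overlap (7.27 to 7.74 against 6.91 to 7.15). For Atp2a2 the means were 8.54 and 8.19, a difference of 0.35 (SE 0.0780, limma adjusted p = 0.00754), with ranges of 8.33 to 8.65 and 8.01 to 8.33 that overlapped only at their ends. The 3 differences held their direction in the 6 naïve GASH/Sal arrays taken alone (0.61 for Atp2b2, 0.47 for Atp2b3 and 0.37 for Atp2a2) and in the 6 stimulated ones (0.45, 0.41 and 0.33 in the same order).

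**Figure D4:**
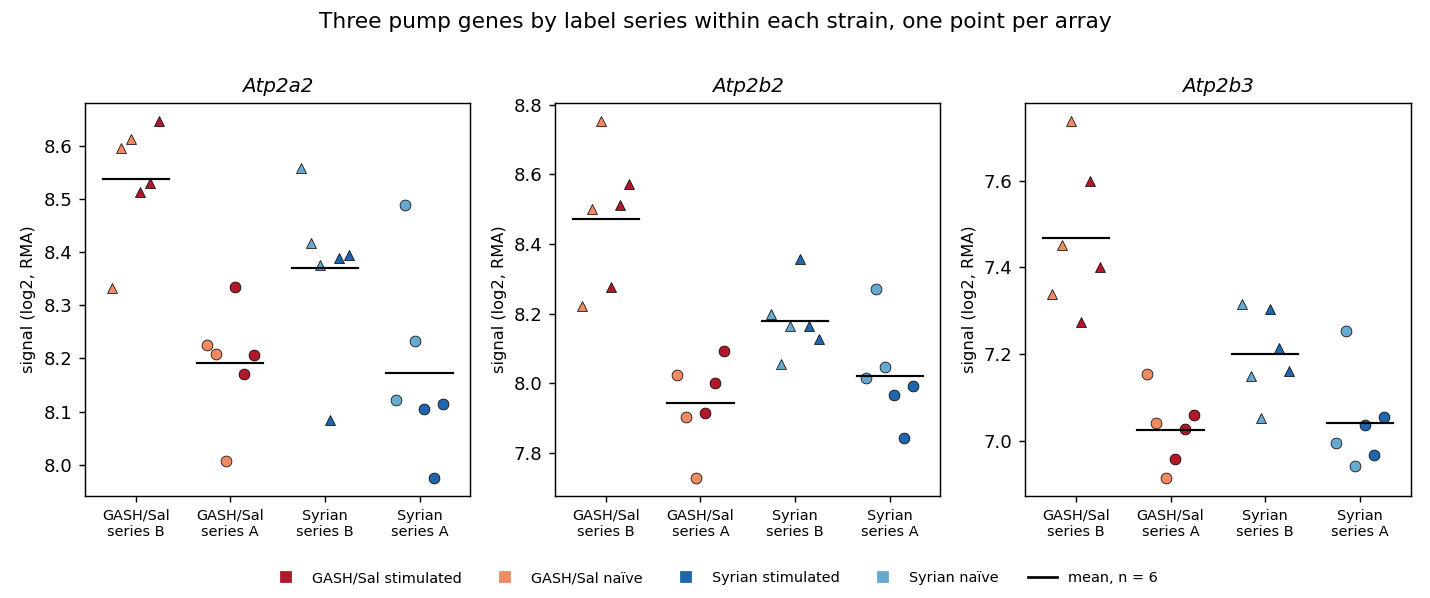
Signal (log2, RMA) of Atp2a2, Atp2b2 and Atp2b3 in label series B and label series A of GASH/Sal and of Syrian hamsters, 1 point per array coloured by group, with the mean of 6 arrays as a line. In GASH/Sal the series B means stand at 8.54, 8.47 and 7.47 and the series A means at 8.19, 7.94 and 7.03.

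In Syrian hamsters the same contrast gave 0.16 for Atp2b2 (SE 0.0876), 0.16 for Atp2b3 (SE 0.0792) and 0.20 for Atp2a2 (SE 0.0780), all upward and none called (limma adjusted p = 0.451, 0.388 and 0.254 in that order). The difference between the strains was itself not called for any gene (0% by limma), and at an unadjusted p under 0.05 there were 2 of 8 members, Atp2b2 and Atp2b3, against 7.36% of all genes. It was 0.37 for Atp2b2 (SE 0.124, 95% interval 0.12 to 0.63, limma adjusted p = 0.481), 0.28 for Atp2b3 (SE 0.112, adjusted p = 0.588) and 0.15 for Atp2a2 (SE 0.110, adjusted p = 0.815). The other 5 members moved by -0.18 to 0.15 between the series in GASH/Sal hamsters and by -0.16 to 0.22 in Syrian hamsters. Neither Atp2a3 nor any release channel was called in either strain.

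Some cell type markers also differed between the series. In GASH/Sal hamsters 3 of 10 neuronal markers, Rbfox3, Syt1 and Syn1, were called higher in series B, against 3.74% of all genes. Of the 10, 6 lay above 0 in GASH/Sal (median 0.12) and 7 in Syrian hamsters (median 0.04), where 55.9% and 63.6% of all genes did. The mean neuronal signal per array lay between 7.96 and 8.10 in series B and 7.72 and 7.97 in series A of GASH/Sal, and between 7.76 and 7.92 in series B and 7.78 and 7.89 in series A of Syrian hamsters. Cerebellar granule cell markers lay above 0 in 8 of 8 in both strains (medians 0.15 in GASH/Sal and 0.12 in Syrian hamsters), and endothelial markers in 7 of 8 in GASH/Sal (0.14) and 8 of 8 in Syrian hamsters (0.095). The strains differed for astrocyte markers, with 3 of 9 above 0 in GASH/Sal (median -0.056) and 8 of 9 in Syrian hamsters (0.12). Microglia markers lay above 0 in 7 of 9 (0.026) and 8 of 9 (0.11), in the same order. Over the 24 arrays, which share groups and label series, Atp2a2 correlated with the neuronal mean at r = 0.684, with the inhibitory neuron mean at 0.543 and with the endothelial mean at 0.471. For Atp2b2 these values were 0.640, 0.654 and 0.669, and for Atp2b3 0.668, 0.733 and 0.628, in the same order. Of the other marker lists, Slc32a1, Cbln1, Cnp and Flt1 were called higher and Alas2 lower in series B of GASH/Sal. Of all genes 3.74% were called higher there and 0.487% lower. The part of cell composition in the pump values was not tested.

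The 3 pumps varied together from array to array. Atp2b2 and Atp2b3 correlated at r = 0.935 over the 24 arrays (Spearman 0.906), and at 0.843 after the means of each group and label series were taken off. Atp2a2 correlated with Atp2b2 at 0.789 and with Atp2b3 at 0.759, and at 0.472 and 0.483 once those means were removed, or 0.733 and 0.638 when the 2 arrays that stand apart were also left out. Atp2b1 correlated with Atp2b2 at r = -0.17 and with Atp2b3 at -0.21, and at 0.440 and 0.387 without those 2 arrays. Its correlation with Ryr2, 0.597, was 0.236 without them. These values are descriptions, since arrays share groups, label series and normalisation.

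**Figure D5:**
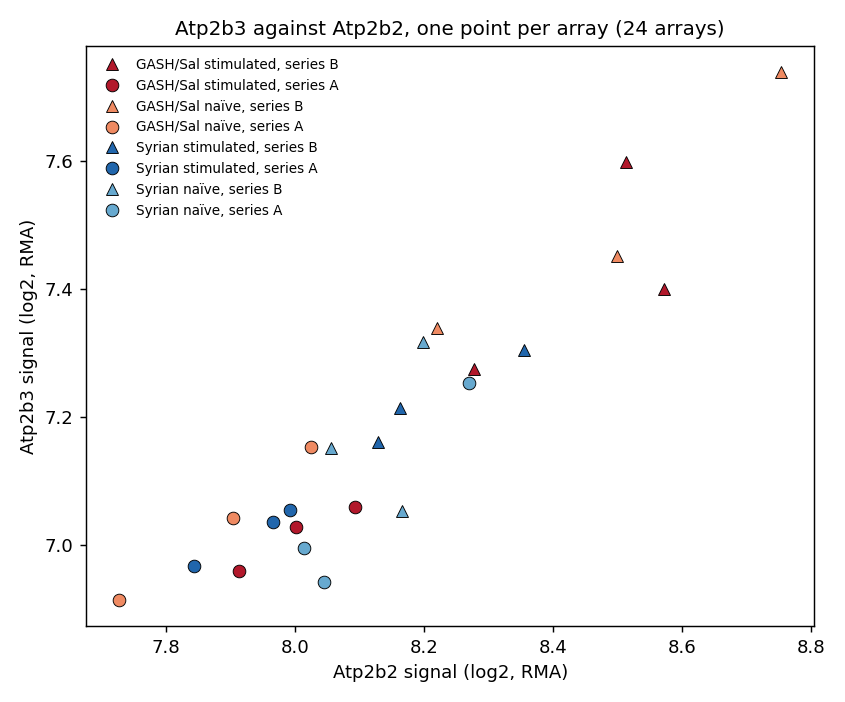
Signal (log2, RMA) of Atp2b3 against that of Atp2b2 in each of the 24 arrays, coloured by group, with triangles for label series B and circles for label series A. Both genes rise together over the arrays (r = 0.935), and the 4 highest Atp2b2 values, 8.50 to 8.75, are all GASH/Sal arrays of series B.

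Atp2a3 did not vary with Atp2a2, Atp2b2 and Atp2b3 in this way, at r = -0.0029, 0.165 and 0.071 in that order. With the means of group and label series taken off, these were -0.36, 0.38 and 0.23. They were -0.16, 0.021 and -0.11 when the 2 arrays that stand apart were also left out. With Atp2b1 it correlated at -0.47, at -0.50 with those means taken off and at -0.52 with only the 2 arrays left out. With both steps together it correlated with Atp2b1 at -0.013. Over all genes, those most like Atp2a3 across the 24 arrays were Pafah2 (r = 0.822), Zfp940 (0.796), Dnajc30 (0.786), A930005H10Rik (0.779) and Smad9 (0.769). With the means of group and label series taken off, the closest were Six3os1 (0.888), Oxr1 (0.869), Morn1 (0.858), Olfr1404 (0.844) and Bcl2l11 (0.836). No gene stood in both sets of 5. The first set still correlated at 0.597 to 0.808 with the means taken off, and the second at 0.532 to 0.732 without that step. Both sets include the 2 arrays that stand apart, of which stimulated Syrian 4 held the highest Atp2a3 value, and no value is given without them. With this many genes and 24 arrays, correlations of this size are a description.

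Of 76 further genes of calcium handling, listed by function, 71 were measured: store-operated entry, other pumps and channels, pump and channel partners, sodium-calcium exchangers, mitochondrial uptake, IP3 turnover and calcium binding in the endoplasmic reticulum. None was called by limma in a strain or sound comparison. At an unadjusted p under 0.05 there were 4 of 71 in the strain comparison after sound (5.63% against 5.42% of all genes), 3 in GASH/Sal (4.23% against 4.46%) and 4 in Syrian hamsters (5.63% against 6.64%) after sound, and 2 for the difference of responses (2.82% against 3.68%). For the average response there were 8 (11.3% against 7.39%). The list medians lay close to those of all genes, at 0.0076 against -0.014 in the strain comparison after sound.

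A pair of these genes met the naming rule. Homer1, a scaffold that links metabotropic glutamate receptors to IP3 receptors and whose short form is induced by activity, was 0.36 higher in stimulated than in naïve GASH/Sal hamsters (SE 0.0964, 6 of 6 arrays above the naïve mean, limma adjusted p = 0.999). In Syrian hamsters it was 0.25 higher (SE 0.0964, 6 of 6 arrays), and averaged over both strains 0.30 higher (SE 0.0682, limma adjusted p = 0.143). Trdn encodes triadin, known from muscle as a partner of the ryanodine receptor. It was 0.34 higher in stimulated GASH/Sal than in stimulated Syrian hamsters (SE 0.118, 6 of 6 arrays above the Syrian mean, limma adjusted p = 0.887), and 0.32 lower in stimulated than in naïve Syrian hamsters (SE 0.118). For Trdn, as for Atp2a2 above, both of these comparisons use the same stimulated Syrian arrays.

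Between the label series of GASH/Sal hamsters 6 of 71 of these genes were called, all higher in series B, where 4.23% of all genes were called and 3.74% called higher. They were Stim1, the calcium sensor of the endoplasmic reticulum (0.40, SE 0.0874, limma adjusted p = 0.00642), Jph3 (0.31) and Jph4 (0.26), junctophilins that hold the endoplasmic reticulum to the plasma membrane, Slc24a3, a potassium-dependent sodium-calcium exchanger (0.37), Slc8b1, the mitochondrial sodium-calcium exchanger (0.32), and Itpkb, a kinase that phosphorylates IP3 (0.48). In Syrian hamsters 1 of 71 was called, against 0.747% of all genes. It was Ahcyl1, a protein that binds IP3 receptors (0.42, SE 0.0759, limma adjusted p = 0.00579). None of the 71 was called for the difference between the strains.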

How the data were processed

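RNA from the IC of 24 hamsters was hybridised to mouse whole-transcript arrays. The authors deposited log2 signals per probe set, made with RMA (version not stated), which corrects background, normalises between arrays and summarises probes. Of 35556 probe sets, 21789 carried 1 symbol in the platform annotation, 1621 several and 12146 none. Each gene was read from its single-symbol probe set of highest mean, which gave 19938 genes, dim ones included. Arrays have no read depth, so their number limits the precision.

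Differences were fitted with limma (version 3.58.1, R version 4.3.3; lmFit and eBayes, all 24 arrays, 19 residual degrees of freedom) with the 4 groups and the label series as terms. P-values were two-sided, adjusted over all genes by the Benjamini-Hochberg method, and called under 0.05. The labels call each array a biological replicate, and the p-values reflect only the scatter of these 24 animals. For label series B minus A, a series term was fitted within each strain. Replicate numbers did not pair arrays across groups.

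The members, lists and tests were chosen with earlier results of these data known. All measured members were named, with other calcium genes at an unadjusted p under 0.01 in a tested comparison (at most the 4 lowest in each) and the 5 genes most correlated with Atp2a3. Genes called between label series were named after their values were seen. Alternatives changed the covariate, samples, filter, probe set rule, scaling, variance model, array weights, call rule and single arrays. Leaving out the 2 arrays that stand apart, and the label series contrast with its settings, were added after seeing the data.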

Additional observations from a re-analysis of the deposited data

Results flagged for a closer look

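Of 32 combinations of a measured gene and a group, 4 held an array set apart from the other 5 of its group by more than Dixon's 95% critical value for 6 arrays. The share over all genes and groups was 8.32%. Stimulated Syrian 4 read 6.197 for Atp2a3, with the other 5 stimulated Syrian arrays between 5.327 and 5.628, and it is 1 of the 2 arrays with the lowest correlation with the rest. Stimulated GASH/Sal 2 read 5.101 for Itpr2, against 5.319 to 5.432 in the other 5 of its group. For Ryr3, stimulated GASH/Sal 5 read 4.645, against 4.976 to 5.034 in the other 5. Naïve GASH/Sal 6, the other array of low correlation, read 4.513 for Ryr3, against 4.889 to 5.042 in the other 5. Chance alone sets apart about 1 group in 20 by this criterion when values are normal.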

How the results depend on the processing

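Between the strains after sound, Atp2a3 (-0.36 to -0.21) and Atp2a2 (0.17 to 0.27) kept their sign in every alternative run, single arrays left out included. So did Atp2b1 (0.039 to 0.37) and Atp2b2 (0.069 to 0.24). Atp2a2 and Atp2b1 also kept it in the GASH/Sal and in the Syrian response. No tested member was called in a strain or sound comparison under any alternative run. The 48 member values gave 608 values under other settings and 1152 with 1 array left out. Among these, 43 and 60 tested values had the other sign, and the cause was not tested. Sign turns of untested values are not in these counts. Untested were the naïve strain differences and Atp2a3 wherever naïve arrays enter. Among the tested values reported, the sign turned as follows. In label series A alone, the strain difference after sound was -0.0044 for Atp2b3, -0.076 for Itpr2 and 0.033 for Ryr3, the GASH/Sal response -0.041 for Itpr2 and -0.11 for Ryr2, and the Syrian response -0.044 for Atp2b3, 0.011 for Itpr2, -0.084 for Ryr2 and -0.038 for Ryr3. In series B alone Atp2b2 gave -0.037 (GASH/Sal response), 0.076 (Syrian response) and -0.11 (difference of responses). Without the 2 arrays that stand apart, Itpr2 (-0.024) and Ryr2 (-0.0035) turned between the strains, Atp2b3 (0.014), Ryr2 (-0.080) and Ryr3 (-0.0018) in the GASH/Sal response and Atp2b3 (-0.0057) in the Syrian response. The GASH/Sal response of Ryr2 was -0.0096 with median centring, -0.0038 with quantile normalisation and -0.074 with array weights, which also gave Itpr2 -0.023 between the strains, and median centring gave Atp2b3 -0.0022 in the Syrian response.

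With 1 array left out, tested values turned sign between the strains after sound for Itpr2 (-0.024 to 0.041) and Ryr2 (-0.015 to 0.096). In the GASH/Sal response the sign turned for Atp2b2 (-0.021 to 0.12), Atp2b3 (-0.10 to 0.014), Ryr2 (-0.077 to 0.050) and Ryr3 (-0.0025 to 0.12). In the Syrian response it turned for Atp2b2 (-0.10 to 0.016), Atp2b3 (-0.041 to 0.064) and Ryr2 (-0.036 to 0.068). Untested values turned too. The naïve strain difference was -0.067 to 0.019 for Atp2a2, -0.014 to 0.24 for Atp2b1 and -0.020 to 0.13 for Atp2b2. The GASH/Sal response of Atp2a3 was -0.059 to 0.059. Under the other settings the naïve difference was -0.14 to 0.063 for Atp2a2, -0.22 to 0.35 for Atp2b2 and -0.027 to 0.34 for Atp2b3. There the GASH/Sal response of Atp2a3 was -0.20 to 0.19.

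The number of genes called after sound in GASH/Sal, 0 in the reported fit, was 7 in label series A alone, 1 with the dim filter, with trend and robust variances or with array weights, and 0 to 1 with 1 array left out. In Syrian hamsters it was 5 in series A alone. The average response, with 1 gene called, had 444 in series A alone, 0 in series B alone, 0 over every probe set, 14 with array weights, 2 without the 2 arrays that stand apart and 1 to 12 with 1 array left out. By at least 1.5-fold and an unadjusted p of at most 0.05, 4 genes passed between the strains after sound, 5 and 2 in the GASH/Sal and Syrian responses and 10 for the difference of responses. At 2-fold the average response had 0.

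Between label series in GASH/Sal, 843 genes were called, 302 in naïve and 61 in stimulated arrays alone, and 499 to 1059 with 1 array left out (499 without naïve GASH/Sal 6, 544 without naïve GASH/Sal 3). In the naïve arrays alone Atp2a2 and Atp2b3 lost their call (adjusted p = 0.136 and 0.0698), and in the stimulated arrays alone Atp2a2, Atp2b2 and Atp2b3 did (0.255, 0.0926 and 0.108), each fit holding fewer arrays. All 3 pumps were called with each array left out. In Syrian hamsters 149 were called, 72 with median centring, 271 without the 2 arrays, 0 in naïve or stimulated arrays alone and 55 to 284 with 1 array left out. It was 284 without naïve GASH/Sal 6, and 55 to 97 without stimulated GASH/Sal 1, naïve GASH/Sal 2, stimulated Syrian 1, 2 or 3, or naïve Syrian 1, 3, 4, 5 or 6. The difference between the strains had 0 called, or 0 to 2.

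Replicate numbers did not pair arrays. Arrays of 1 number in the 4 groups correlated at -0.21 to 0.12 around their means, and 1 of 24 arrays correlated best with its own number. With the number as a replicate block, 0 genes were called in the 4 strain and response comparisons and 1 in the average response, and Atp2a3 stayed at -0.31 after sound (limma adjusted p = 0.939).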
